A study of Mus musculus with 9 samples.

Results

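Ion channel genes were described as a module of 134 genes among the 34779 named genes of an RNA sequencing table. The cells were cardiac fibroblasts of neonatal mice. A gene belonged to the module by its symbol alone: Kcn, Cacna, Cacnb, Cacng or Hcn followed by a letter or a digit, or Scn followed by a digit. No expression value entered that choice. All groups shared a wild-type genotype, infection with a virus 24 h after seeding, and collection at day 14. MGT+TMP269 cells carried the virus for Mef2c, Gata4 and Tbx5 and received TMP269, a compound against class IIa histone deacetylases, given in the labels as an inhibitor of HDAC4. MGT cells carried the same virus without the compound. DsRed cells carried a virus for a red fluorescent protein. Each group held 3 libraries, numbered as biological replicates, and the labels name neither cultures nor animals, so the p-values measure the spread between libraries, which may be technical. The MGT virus is a mixture that turns part of a fibroblast culture towards cardiomyocyte-like cells, and the libraries were made from bulk RNA, so fewer cells of a type and less RNA per cell cannot be told apart.

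The heartbeat is an electrical event carried by these proteins. Sodium channels start the action potential of working heart muscle, calcium channels of the L type hold its plateau and trigger contraction, and potassium channels end it. Inward rectifier potassium channels set the resting potential, and hyperpolarization-activated Hcn channels carry the pacemaker current of the sinoatrial node. Most channels combine a pore-forming alpha subunit with auxiliary subunits that change its gating or its delivery to the membrane. Fibroblasts of the heart also express a range of potassium channels.

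Expression was deposited as TPM, a length-corrected share of the transcripts, and read depth is unknown with this unit. DsRed replicate 2 stood apart from its group. Its correlation across genes with the other DsRed libraries was 0.942 to 0.943, against 0.973 between those and 0.978 to 0.981 in the other groups, and the upper quartile of its TPM over named genes lay at 5.36, below the 8.66 to 9.54 of all other libraries. Counts and called differences against DsRed are therefore given with and without it, and some differences that were not called with all libraries only. Marker lists moved with the groups. The summed TPM of 6 cardiomyocyte markers was 6650 to 7175 in MGT+TMP269 libraries, 4450 to 4942 in MGT libraries and 166.1 to 255.0 in DsRed libraries. Tnnt2 held most of this sum, averaging 5908 TPM in MGT+TMP269, 3971 TPM in MGT and 199.7 TPM in DsRed. Myh6, Ryr2 and Actn2 were also highest in MGT+TMP269. Actc1 was not, averaging 531.4 TPM in MGT+TMP269, 563.5 TPM in MGT and 5.25 TPM in DsRed, and Nkx2-5 was low in all groups. That of 7 fibroblast markers was 2183 to 2262 in MGT+TMP269 libraries, 7016 to 7434 in MGT libraries and 4354 to 8017 in DsRed libraries, and Col1a1 and Col1a2 held most of it. Its members differed between MGT and DsRed: Tcf21, Pdgfra and Dcn averaged 182.1, 8.63 and 350.1 TPM in MGT, against 482.3, 27.3 and 577.7 TPM in DsRed, while Thy1 averaged 445.1 TPM in MGT and 202.0 TPM in DsRed. The sum of 8 macrophage markers was 24.2 to 34.1 in MGT+TMP269 libraries, 295.5 to 520.4 in MGT libraries and 154.2 to 410.2 in DsRed libraries. Among defining markers, Nkx2-5 averaged at most 0.632 TPM in any group, Irx4 was listed at 0 in all 9 libraries, and 6 neuronal and glial markers summed to at most 2.35 TPM. Of 4 skeletal muscle markers, Acta1 averaged 109.0 TPM in MGT+TMP269, 115.8 TPM in MGT and 5.89 TPM in DsRed, while Myog, Ckm and Myod1 averaged at most 0.274 TPM in any group. The part of these cell types in the results below was not tested.

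Of the 134 channel genes, 46 averaged at least 1 TPM in some group. By group these were 36 in MGT+TMP269, 38 in MGT and 30 in DsRed. Of these, 11 reached a mean of 10 TPM in a group. Another 26 of the 134 stayed below 0.1 TPM in every library, among them 7 listed at 0 throughout. The module summed to 418.6 ± 10.6 TPM in MGT+TMP269, 431.5 ± 17.7 TPM in MGT and 428.6 ± 99.3 TPM in DsRed (SD, n = 3 each), and its make-up differed by group. Pore-forming subunits of voltage-gated potassium channels summed to 125.2 ± 3.86 TPM in MGT+TMP269, 92.6 ± 0.737 TPM in MGT and 14.4 ± 5.13 TPM in DsRed (SD, n = 3 each). The sum of auxiliary potassium subunits went the other way, at 68.5 ± 5.97 TPM in MGT+TMP269, 80.5 ± 6.09 TPM in MGT and 150.0 ± 27.3 TPM in DsRed (SD, n = 3 each). Kcne4 and Kcnab1, described below, made most of that sum, while its members Kcnmb1 and Kcnab2 were highest in MGT. Pacemaker genes summed to 9.62 ± 0.766 TPM in MGT+TMP269, 3.75 ± 0.252 TPM in MGT and 4.21 ± 0.827 TPM in DsRed (SD, n = 3 each). These are descriptions without a test, and none of the 3 named subfamily sums changed its order between groups after median-ratio rescaling, although for the whole module MGT then lay below DsRed (428.3 and 459.5 TPM).

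**Figure D1:**
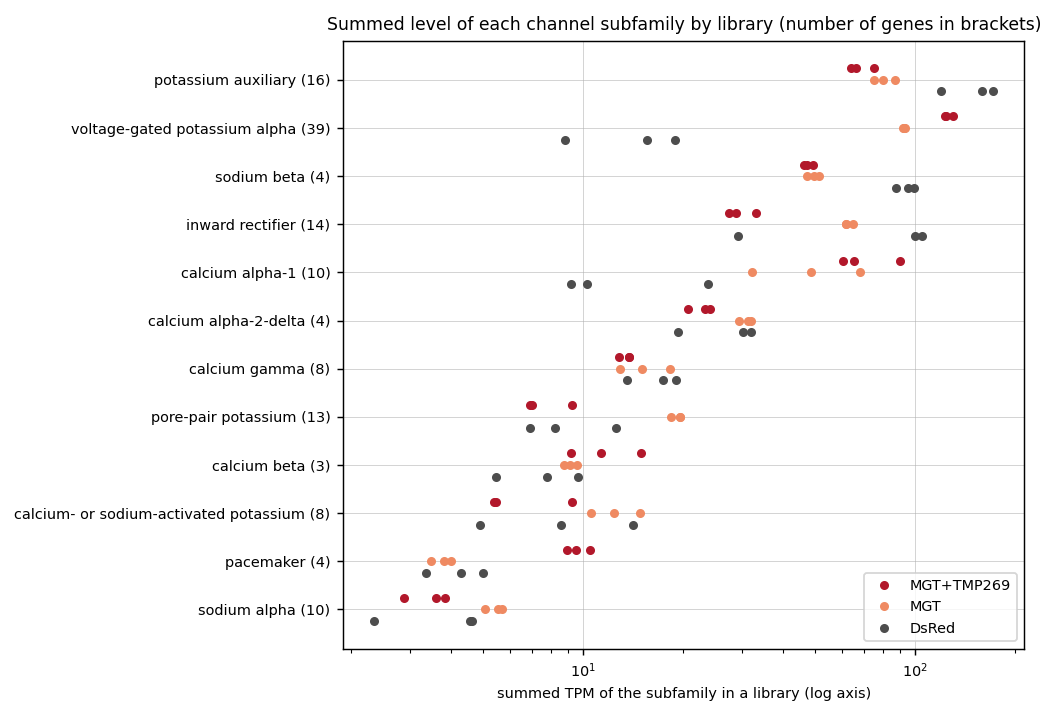
Summed TPM of each channel subfamily (log axis) in every library, with the number of genes in brackets and 1 point per library, for MGT+TMP269, MGT and DsRed. Voltage-gated potassium alpha subunits lie at 122.6 to 129.7 TPM in MGT+TMP269 libraries and 92.0 to 93.4 TPM in MGT libraries, against 8.82 to 18.9 TPM in DsRed libraries.

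With a mean of at least 1 TPM over the 9 libraries, 36 channel genes entered the test across 13228 genes. Adding TMP269 to MGT raised 4 and lowered 6 of them, where 3.32% and 5.97% of all genes were called higher and lower. In MGT against DsRed 11 rose and 3 fell, with 8.14% and 4.18% of all genes called. In MGT+TMP269 against DsRed 10 rose and 5 fell, with 14.7% and 8.06% of all genes called. The median log2 difference of the 36 genes was −0.12, 0.38 and 0.23 in these comparisons, beside 0.11, 0.11 and 0.22 over all genes. Of the 36, 14 averaged under 1 TPM in some group and passed the filter through the groups where they were higher, so the counts describe the tested genes and not the module. Any 2 of the 3 comparisons share a group of libraries and are not independent.

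Without DsRed replicate 2 the counts were 6 higher and 10 lower in MGT+TMP269 against MGT, where 19.3% and 11.3% of all genes were called. They were 12 and 6 in MGT against DsRed (12.5% and 13.8% of all genes) and 10 and 11 in MGT+TMP269 against DsRed (21.4% and 15.3%). The added calls were Kcnab1 and Cacnb2 (higher) and Kcne4, Cacna2d1, Kcnq5 and Scn2a (lower) in MGT+TMP269 against MGT, and Kcng2 (higher) and Kcnj15, Scn3b and Kcnt2 (lower) in MGT against DsRed. In MGT+TMP269 against DsRed they were Kcnab1, Cacna2d1, Kcnq5, Kcnn4, Scn3b and Kcnt2, all lower. Rescaling each library by the median ratio of its genes moved the median of all genes by −0.10, −0.12 and −0.23 in the 3 comparisons. The calls were then 4 higher and 9 lower (3.46% and 8.1% of all genes), 11 and 5 (8.78% and 6.86%), and 10 and 12 (11.7% and 13.2%). Quantile scaling gave 5 and 7 (5.72% and 7.8% of all genes), 11 and 6 (9.01% and 8.58%), and 9 and 12 (13.3% and 12.9%).

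**Figure D2:**
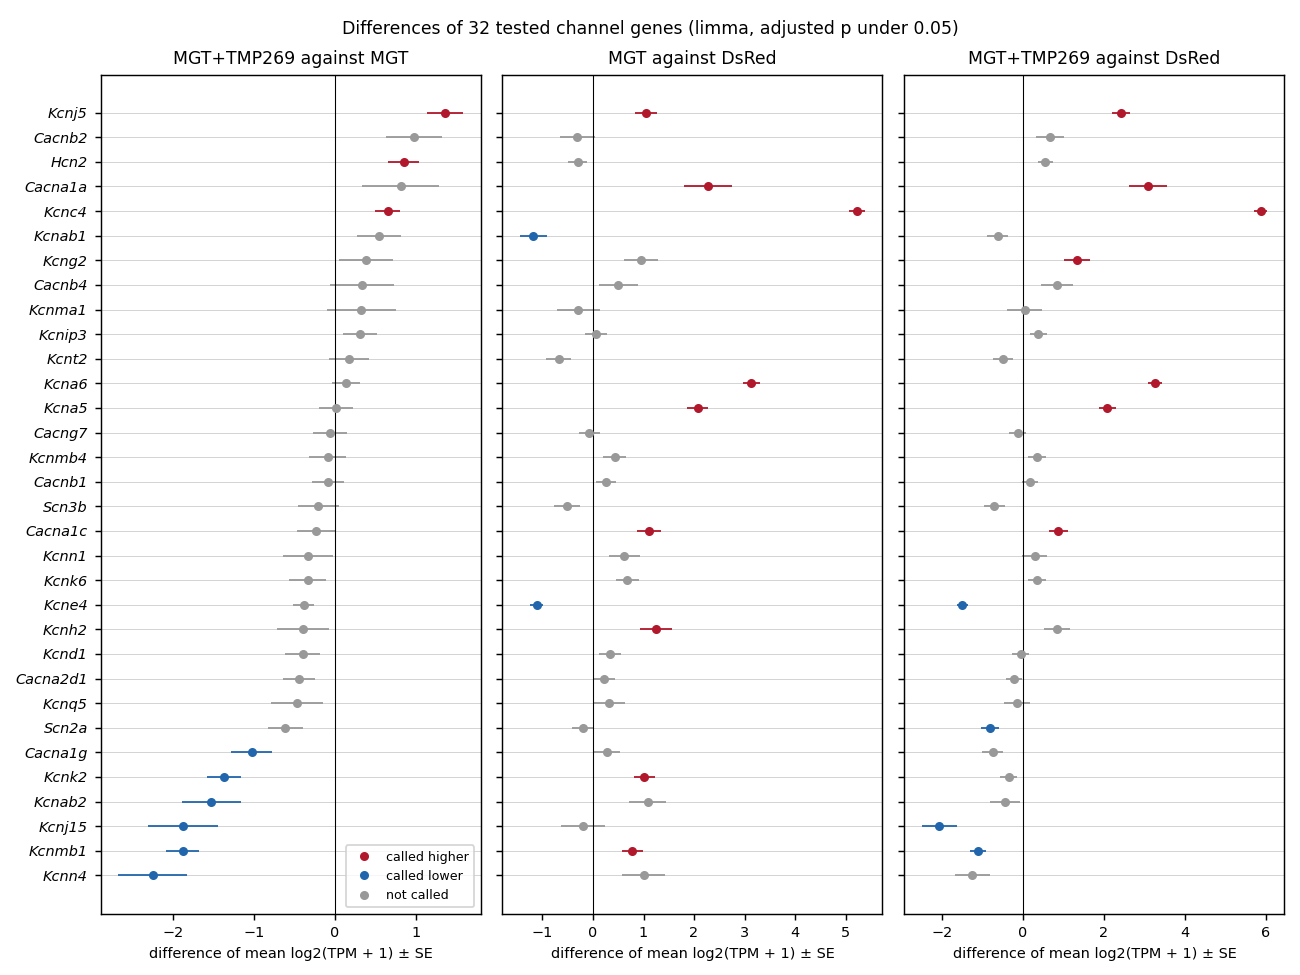
Difference of mean log2(TPM + 1) with its standard error for 32 of the 36 tested channel genes in the 3 comparisons, ordered by MGT+TMP269 against MGT, with genes called at an adjusted p under 0.05 in red (higher) or blue (lower). Kcnj5 lies at the top of the first panel at 1.37 and Kcnn4 at the bottom at −2.26, and Kcnc4 lies farthest right in both panels against DsRed, at 5.22 and 5.88.

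Voltage-gated potassium channel genes held the largest rises over DsRed among the 36 tested channel genes, those of Kcnc4 and Kcna6. Kcnc4 encodes a fast-inactivating alpha subunit best known from neurons and skeletal muscle. Its level was 76.9, 82.5 and 90.1 TPM in MGT+TMP269 libraries, against 52.3, 53.8 and 51.5 TPM in MGT libraries and 0.264, 0.324 and 0.75 TPM in DsRed libraries. The groups did not overlap and DsRed was near 0. Kcnc4 rose in MGT+TMP269 against DsRed by 5.88 ± 0.16 (adjusted p = 1.69e-08) and in MGT against DsRed by 5.22 ± 0.16 (adjusted p = 3.32e-08), or by 5.82 and 5.17 without DsRed replicate 2. TMP269 raised it 1.58-fold over MGT (0.65 ± 0.16, adjusted p = 0.0341), a call that was lost when any 1 of the 6 compared libraries was left out. With DsRed replicate 2 left out of the fit this difference was the same and its adjusted p was 0.00609. Kcnc4 supplied 66.4% ± 3.45 in MGT+TMP269, 56.7% ± 1.68 in MGT and 3.11% ± 1.23 in DsRed of the summed alpha-subunit TPM.

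Kcna6 and Kcna5 encode delayed rectifier subunits of the shaker family, and Kcna5 carries a repolarizing current of mouse ventricle and of human atrium. Kcna6 had 11, 10.7 and 10.5 TPM in MGT+TMP269 libraries, against 11.3, 9.78 and 8.16 TPM in MGT libraries and 0.227, 0.221 and 0.198 TPM in DsRed libraries. Kcna5 had 4.4, 4.94 and 3.87 TPM in MGT+TMP269 libraries, against 3.83, 5.26 and 4.03 TPM in MGT libraries and 0.129, 0.198 and 0.524 TPM in DsRed libraries. In each gene the MGT+TMP269 and MGT libraries overlapped and all 6 lay above every DsRed library. Kcna6 rose by 3.27 ± 0.17 in MGT+TMP269 and 3.13 ± 0.17 in MGT against DsRed (adjusted p = 1.41e-06 and 2.34e-06). Kcna5 rose by 2.08 ± 0.21 and 2.07 ± 0.21 (adjusted p = 9.54e-05 and 0.000142). Without DsRed replicate 2 the differences were 3.27 and 3.14 for Kcna6 and 2.04 and 2.02 for Kcna5, called in each case. Between MGT+TMP269 and MGT the differences were 0.14 ± 0.17 for Kcna6 and 0.01 ± 0.21 for Kcna5 and were not called (adjusted p = 0.722 and 0.981). In the RefSeq gene order these 2 genes flank Kcna1, another shaker gene, which averaged 0.0527 TPM over the 9 libraries.

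The promoters of these 3 genes are shown because the genes rose together over DsRed. They come from RefSeq (GRCm38.p6) and run from 250 bases before to 50 bases after the annotated start, on the gene's strand, here minus for all 3, at chr3:107458849-107459148 for Kcnc4, chr6:126740625-126740924 for Kcna6 and chr6:126535506-126535805 for Kcna5. Capitals mark a match to 1 of 3 motifs searched on both strands: the MEF2 site by its consensus name, the GATA motif AGATAA and the E-box CAGCTG.
Kcnc4: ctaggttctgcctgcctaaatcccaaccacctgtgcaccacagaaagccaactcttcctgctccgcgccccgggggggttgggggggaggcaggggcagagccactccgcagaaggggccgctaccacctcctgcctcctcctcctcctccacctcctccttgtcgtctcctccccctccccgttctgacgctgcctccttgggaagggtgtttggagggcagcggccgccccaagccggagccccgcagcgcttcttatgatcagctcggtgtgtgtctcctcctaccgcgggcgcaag
Kcna6: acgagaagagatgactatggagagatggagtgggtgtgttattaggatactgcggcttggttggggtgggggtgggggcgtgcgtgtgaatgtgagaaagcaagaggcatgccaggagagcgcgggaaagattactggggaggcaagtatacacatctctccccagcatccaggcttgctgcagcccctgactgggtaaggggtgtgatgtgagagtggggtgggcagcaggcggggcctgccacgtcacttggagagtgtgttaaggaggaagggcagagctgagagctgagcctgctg
Kcna5: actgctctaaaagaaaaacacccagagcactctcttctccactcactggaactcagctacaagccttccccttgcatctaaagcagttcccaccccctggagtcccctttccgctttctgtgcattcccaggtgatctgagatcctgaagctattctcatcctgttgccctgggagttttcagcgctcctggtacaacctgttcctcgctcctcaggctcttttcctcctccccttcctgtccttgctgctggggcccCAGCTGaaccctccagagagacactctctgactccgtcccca
The Kcna5 window holds 1 E-box that begins at base 9 counted from the start, and the Kcnc4 and Kcna6 windows hold none of the 3 motifs. Over all 32851 RefSeq promoters of this length, 0.557% held the MEF2 motif, 11.2% the GATA motif and 16.3% the E-box. Of 134 promoters listed for 99 of the 134 channel genes, these shares were 0.746%, 3.73% and 27.6%. The motif letters do not overlap one another, and the matches are letters in a window and no measure of binding.

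Kcng2, an electrically silent subunit that works only together with other alpha subunits, had 3.92, 1.61 and 1.52 TPM in MGT+TMP269 libraries, against 1.12, 1.93 and 1.34 TPM in MGT libraries and 0.0876, 0.792 and 0.0356 TPM in DsRed libraries. Its MGT+TMP269 libraries all lay above its DsRed libraries, and MGT+TMP269 replicate 1 stood highest. Kcng2 rose in MGT+TMP269 against DsRed (1.33 ± 0.33, adjusted p = 0.0184, and 1.59 without DsRed replicate 2), a call lost without MGT+TMP269 replicate 1 or DsRed replicate 1.

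Kcnh2 encodes the channel of the rapid delayed rectifier current that ends the action potential of the human heart. It had 4.85, 2.99 and 2.74 TPM in MGT+TMP269 libraries, against 4.94, 3.25 and 6.89 TPM in MGT libraries and 1.7, 0.731 and 2.23 TPM in DsRed libraries. Kcnh2 was 3.24-fold higher in MGT than in DsRed (1.24 ± 0.32, adjusted p = 0.0338) and 2.56-fold higher without DsRed replicate 2. All DsRed libraries lay below the rest. The call was lost without MGT+TMP269 replicate 2 or 3, MGT replicate 1 or 3, or DsRed replicate 1. Kcnq5 and Kcnd1, an M-type and an A-type subunit, averaged 3.84 and 1.39 TPM in MGT+TMP269, 5.72 and 2.13 TPM in MGT and 4.80 and 1.5 TPM in DsRed, and neither was called in any of the 3 comparisons with all libraries.

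**Figure D3:**
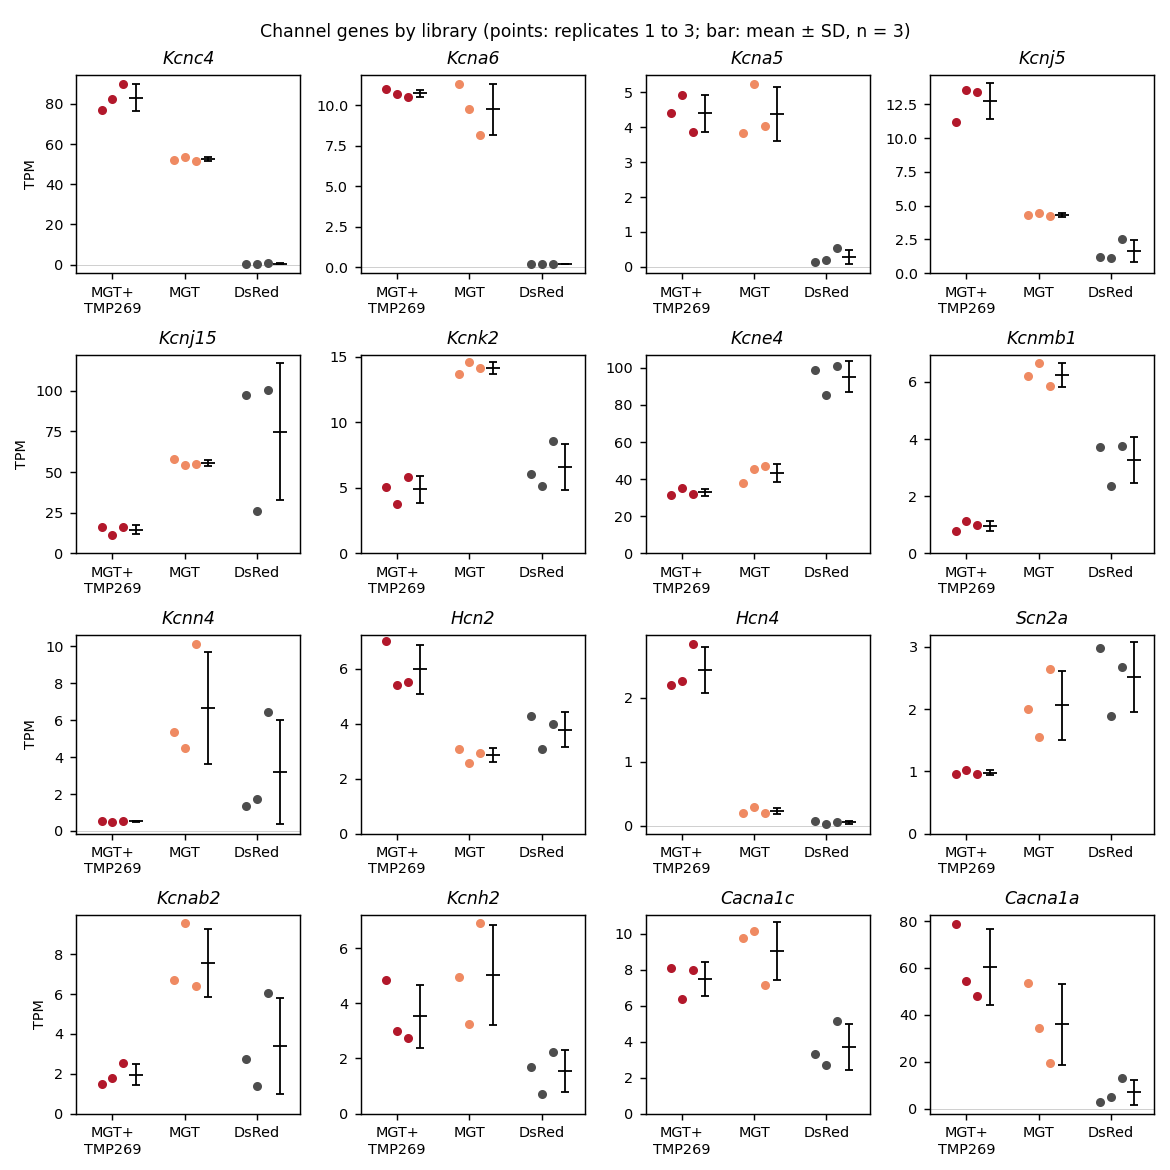
TPM of 16 channel genes in every library (coloured points), with the mean and SD of each group of 3 as a bar beside them, for MGT+TMP269, MGT and DsRed, on a separate linear axis per gene. Kcnc4, Kcna6 and Kcna5 lie near 0 in DsRed, Kcnj5, Hcn2 and Hcn4 are highest in MGT+TMP269, and DsRed replicate 2 lies at 26.3 TPM for Kcnj15 while the other DsRed libraries lie at 97.5 and 100.6 TPM.

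Among inward rectifiers, Kcnj5 was highest with TMP269 and Kcnj15 lowest. Kcnj5 encodes a subunit of the channel that acetylcholine opens in atrial and nodal cells, where it pairs with the product of Kcnj3. Its level was 11.2, 13.5 and 13.4 TPM in MGT+TMP269 libraries, against 4.28, 4.44 and 4.21 TPM in MGT libraries and 1.21, 1.16 and 2.55 TPM in DsRed libraries. No 2 groups overlapped. Kcnj5 rose 2.95-fold in MGT+TMP269 over MGT (1.37 ± 0.22, adjusted p = 0.00463), and this call was kept in all 9 fits that left out 1 library. Against DsRed it was 7.75-fold higher in MGT+TMP269 (2.41 ± 0.22, adjusted p = 5.48e-05) and 2.62-fold higher in MGT (1.05 ± 0.22, adjusted p = 0.0129), or 6.76-fold and 2.29-fold without DsRed replicate 2. The MGT call was lost without any 1 of the MGT libraries. Its partner Kcnj3 had 0.176, 0.28 and 0.374 TPM in MGT+TMP269 libraries, against 0, 0.0917 and 0.0855 TPM in MGT libraries and 0, 0 and 0.0481 TPM in DsRed libraries, too low for the main test. The Kcnj5 promoter is shown as that of the channel gene with the largest rise under TMP269 in the main test (RefSeq GRCm38.p6, minus strand, chr9:32344295-32344594), and it holds none of the 3 motifs.
Kcnj5: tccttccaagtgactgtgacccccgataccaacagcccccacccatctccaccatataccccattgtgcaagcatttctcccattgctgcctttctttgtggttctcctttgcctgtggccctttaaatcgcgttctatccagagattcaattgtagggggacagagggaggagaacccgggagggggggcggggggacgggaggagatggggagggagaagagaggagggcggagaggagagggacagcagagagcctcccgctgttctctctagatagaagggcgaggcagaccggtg

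Kcnj15 encodes an inward rectifier known from kidney and other epithelia. It had 16.1, 11.5 and 16.2 TPM in MGT+TMP269 libraries, against 57.8, 54 and 55.1 TPM in MGT libraries and 97.5, 26.3 and 100.6 TPM in DsRed libraries. The MGT+TMP269 libraries lay below all others, and DsRed replicate 2 lay far below the other DsRed libraries. Kcnj15 fell in MGT+TMP269 against MGT (−1.88 ± 0.43, adjusted p = 0.0263, 3.82-fold lower), a call lost without any 1 of the 6 compared libraries. With DsRed replicate 2 left out of the fit this difference was the same and its adjusted p was 3.85e-05. Kcnj15 fell against DsRed as well (−2.07 ± 0.43, adjusted p = 0.00828, 5.13-fold lower, and 6.79-fold lower without DsRed replicate 2). MGT and DsRed were not called apart with all libraries (−0.20 ± 0.43, adjusted p = 0.829), while without DsRed replicate 2 Kcnj15 was called lower in MGT, by a difference of −0.82. Kcnj5 and Kcnj15 together held most of the subfamily's transcripts. Kcnj5 was 42.9% ± 5.71 in MGT+TMP269, 6.86% ± 0.301 in MGT and 2.54% ± 1.39 in DsRed of the summed TPM of the 14 inward rectifiers, and Kcnj15 was 48.9% ± 7.07 in MGT+TMP269, 88.6% ± 1.04 in MGT and 94.6% ± 3.97 in DsRed.

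The rectifiers that set the resting potential of ventricular muscle were low. Kcnj2 had 0.497, 0.784 and 1.1 TPM in MGT+TMP269 libraries, against 1.53, 1.34 and 1.32 TPM in MGT libraries and 0.569, 0.246 and 0.87 TPM in DsRed libraries, and Kcnj12 had at most 0.211 TPM in any library. The pore subunits of ATP-sensitive channels were low too. Kcnj11 had 0.499, 0.477 and 1.54 TPM in MGT+TMP269 libraries, against 0.285, 0.851 and 0.363 TPM in MGT libraries and 0, 0 and 0.34 TPM in DsRed libraries, and Kcnj8 had at most 0.167 TPM.

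Kcnk2 encodes a tandem-pore background channel opened by stretch and by lipids. It had 5.06, 3.8 and 5.85 TPM in MGT+TMP269 libraries, against 13.7, 14.6 and 14.2 TPM in MGT libraries and 6.04, 5.17 and 8.59 TPM in DsRed libraries. The MGT libraries lay above all others, and MGT+TMP269 and DsRed overlapped. Kcnk2 was 2.88-fold lower in MGT+TMP269 than in MGT (−1.37 ± 0.21, adjusted p = 0.00348, kept in all 9 fits without 1 library). It was 2.14-fold higher in MGT than in DsRed (1.02 ± 0.21, adjusted p = 0.0116, and 1.93-fold without DsRed replicate 2), a call lost without MGT replicate 2 or 3. MGT+TMP269 and DsRed were not called apart (−0.36 ± 0.21, adjusted p = 0.252, and −0.49, adjusted p = 0.0718, without DsRed replicate 2). Kcnk6, a weak background channel, averaged 1.17 TPM in MGT+TMP269, 1.75 TPM in MGT and 0.743 TPM in DsRed and was not called. Kcnk3, the acid-sensitive background channel, had at most 0.696 TPM in any library.

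Auxiliary potassium subunits held several of the calls below DsRed. Kcne4 encodes a single-pass subunit that inhibits several voltage-gated channels. It had 31.5, 35.2 and 32 TPM in MGT+TMP269 libraries, against 38, 45.4 and 47.1 TPM in MGT libraries and 98.7, 85.6 and 101.0 TPM in DsRed libraries. The 3 groups did not overlap. Kcne4 was 2.89-fold lower in MGT+TMP269 than in DsRed (−1.50 ± 0.13, adjusted p = 3.39e-05) and 2.18-fold lower in MGT (−1.11 ± 0.13, adjusted p = 0.000347), or 3.03-fold and 2.29-fold without DsRed replicate 2. Between MGT+TMP269 and MGT the difference was not called (−0.39 ± 0.13, adjusted p = 0.105), and it was called when DsRed replicate 2 was left out of the fit.

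The beta subunits Kcnab1 and Kcnab2 bind the inner side of shaker channels. Kcnab1 had 23, 32.4 and 25.5 TPM in MGT+TMP269 libraries, against 18.8, 20.3 and 15.1 TPM in MGT libraries and 49.4, 26.4 and 56.2 TPM in DsRed libraries. The DsRed libraries spread widely, and the MGT libraries lay below them. Kcnab1 fell in MGT against DsRed (−1.18 ± 0.27, adjusted p = 0.0194, 2.43-fold lower, and 2.92-fold lower without DsRed replicate 2). That call was lost without MGT replicate 1 or 3 or DsRed replicate 1 or 3. Kcnab2 had 1.5, 1.81 and 2.53 TPM in MGT+TMP269 libraries, against 6.69, 9.54 and 6.43 TPM in MGT libraries and 2.76, 1.39 and 6.04 TPM in DsRed libraries. MGT was highest and the other groups overlapped. Kcnab2 fell in MGT+TMP269 against MGT (−1.53 ± 0.36, adjusted p = 0.0296, 3.88-fold lower), a call lost without any 1 of the 6 compared libraries. With DsRed replicate 2 left out of the fit this difference was the same and its adjusted p was 0.0039. The summed macrophage markers given above were lowest in MGT+TMP269 libraries. Within MGT, replicate 2 had the highest Kcnab2 and the lowest marker sum, 295.5, against 454.4 and 520.4 in replicates 1 and 3. In DsRed, replicate 3 was highest in both. The part of these markers in the Kcnab2 difference was not tested.

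Kcnmb1 encodes the beta subunit of the large-conductance calcium-activated channel of smooth muscle. It had 0.77, 1.12 and 1.00 TPM in MGT+TMP269 libraries, against 6.22, 6.66 and 5.84 TPM in MGT libraries and 3.71, 2.35 and 3.77 TPM in DsRed libraries. No 2 groups overlapped, with MGT highest and MGT+TMP269 lowest. Kcnmb1 fell in MGT+TMP269 against MGT (−1.89 ± 0.20, adjusted p = 0.000512) and against DsRed (−1.11 ± 0.20, adjusted p = 0.0041, and −1.28 without DsRed replicate 2), both kept in all 9 fits without 1 library. It rose 1.90-fold in MGT against DsRed (0.78 ± 0.20, adjusted p = 0.0359, and 1.67-fold without DsRed replicate 2). That last call was kept in 2 of those 9 fits, those without DsRed replicate 2 and without DsRed replicate 3. Of 4 smooth muscle and pericyte markers in the table, Des, which other muscle also expresses, averaged 969.6 TPM in MGT+TMP269, 1166 TPM in MGT and 214.0 TPM in DsRed and made most of their sum, 990.6 to 995.6 in MGT+TMP269 libraries, 1176 to 1249 in MGT libraries and 207.5 to 285.3 in DsRed libraries. Cspg4 averaged 18.0 TPM in MGT+TMP269, 32.4 TPM in MGT and 2.56 TPM in DsRed. Rgs5 and Notch3 were highest in DsRed, at 0.630 and 5.42 TPM in MGT+TMP269, 2.02 and 6.25 TPM in MGT and 11.9 and 20.2 TPM in DsRed. The part of these markers was not tested. Kcnma1, the pore-forming partner of Kcnmb1, had 3.87, 1.35 and 0.565 TPM in MGT+TMP269 libraries, against 1.47, 0.899 and 0.937 TPM in MGT libraries and 1.78, 0.671 and 2.59 TPM in DsRed libraries and was not called in any comparison.

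Kcnn4 encodes the intermediate-conductance calcium-activated channel of blood and immune cells. It had 0.518, 0.495 and 0.558 TPM in MGT+TMP269 libraries, against 5.36, 4.47 and 10.1 TPM in MGT libraries and 1.38, 1.72 and 6.43 TPM in DsRed libraries. All MGT+TMP269 libraries were below every other library, and replicate 3 stood above its group in both MGT and DsRed. Kcnn4 fell in MGT+TMP269 against MGT (−2.26 ± 0.43, adjusted p = 0.0105), a call lost without MGT replicate 3. The macrophage marker C1qa, a complement gene, moved with it, at 1.75, 3.59 and 4.86 TPM in MGT+TMP269 libraries, against 166.0, 113.0 and 184.7 TPM in MGT libraries and 57.7, 70.5 and 137.4 TPM in DsRed libraries, and its sum with the other 7 macrophage markers is given above. Their part in the Kcnn4 difference was not tested. Of the small-conductance channels, Kcnn1 averaged 1.58 TPM in MGT+TMP269, 2.23 TPM in MGT and 1.08 TPM in DsRed and was not called, and Kcnn2 had at most 0.193 TPM in any library.

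Of the pacemaker genes, Hcn2 and Hcn4 were highest with TMP269. Hcn2, the most abundant of the 4 and present in ventricle and node, had 7.02, 5.41 and 5.54 TPM in MGT+TMP269 libraries, against 3.08, 2.57 and 2.93 TPM in MGT libraries and 4.28, 3.06 and 3.99 TPM in DsRed libraries. The MGT+TMP269 libraries lay above all others. Hcn2 rose 2.09-fold over MGT (0.85 ± 0.19, adjusted p = 0.022), a call lost without any 1 of the 6 compared libraries. With DsRed replicate 2 left out of the fit this difference was the same and its adjusted p was 0.00273. The difference from DsRed was not called (0.55 ± 0.19, adjusted p = 0.0639, and 0.44, adjusted p = 0.0558, without DsRed replicate 2).

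Hcn4, the main pacemaker channel of the sinoatrial node, fell below the filter of the main test. It had 2.2, 2.26 and 2.84 TPM in MGT+TMP269 libraries, against 0.205, 0.291 and 0.199 TPM in MGT libraries and 0.0774, 0.0223 and 0.0628 TPM in DsRed libraries. The MGT+TMP269 libraries stood apart at over 2 TPM, and MGT lay above DsRed without overlap. In the fit that kept genes with a mean of at least 0.1 TPM, Hcn4 rose in MGT+TMP269 against MGT (1.47 ± 0.14, adjusted p = 0.000419) and against DsRed (1.70 ± 0.14, adjusted p = 4.45e-05, and 1.68 without DsRed replicate 2). MGT against DsRed was not called (0.22 ± 0.14, adjusted p = 0.43). Hcn4 made up 25.6% ± 5.58 in MGT+TMP269, 6.25% ± 1.83 in MGT and 1.23% ± 0.488 in DsRed of the summed Hcn TPM, and Hcn2 made up 62.1% ± 5.1 in MGT+TMP269, 76.2% ± 2.05 in MGT and 90.1% ± 3.97 in DsRed. Hcn3 had 1.02, 1.5 and 0.331 TPM in MGT+TMP269 libraries, against 0.218, 0.269 and 0.25 TPM in MGT libraries and 0.535, 0.198 and 0.147 TPM in DsRed libraries and was not called in that fit.

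Other genes of the sinoatrial node did not follow 1 pattern. Tbx18, a transcription factor of the node's head and of the epicardium, had 79.4, 73.6 and 80.2 TPM in MGT+TMP269 libraries, against 45.1, 46.1 and 45.4 TPM in MGT libraries and 22.9, 12.3 and 20.0 TPM in DsRed libraries. Shox2, which represses the working-muscle programme in the node, had 5.52, 5.37 and 6.21 TPM in MGT+TMP269 libraries, against 10.9, 6.85 and 6.97 TPM in MGT libraries and 3.92, 2.92 and 5.12 TPM in DsRed libraries. Isl1 had at most 0.723 TPM in any library. The Hcn4 promoter is shown because this gene had the largest rise under TMP269 in the lower-filter fit (RefSeq GRCm38.p6, plus strand, chr9:58822699-58822998), and it holds none of the 3 motifs.
Hcn4: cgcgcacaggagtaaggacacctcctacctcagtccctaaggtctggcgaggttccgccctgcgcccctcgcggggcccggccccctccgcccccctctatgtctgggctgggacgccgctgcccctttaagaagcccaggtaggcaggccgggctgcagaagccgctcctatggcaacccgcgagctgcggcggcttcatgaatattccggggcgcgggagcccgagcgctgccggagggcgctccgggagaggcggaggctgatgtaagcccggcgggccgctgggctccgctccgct

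**Figure D4:**
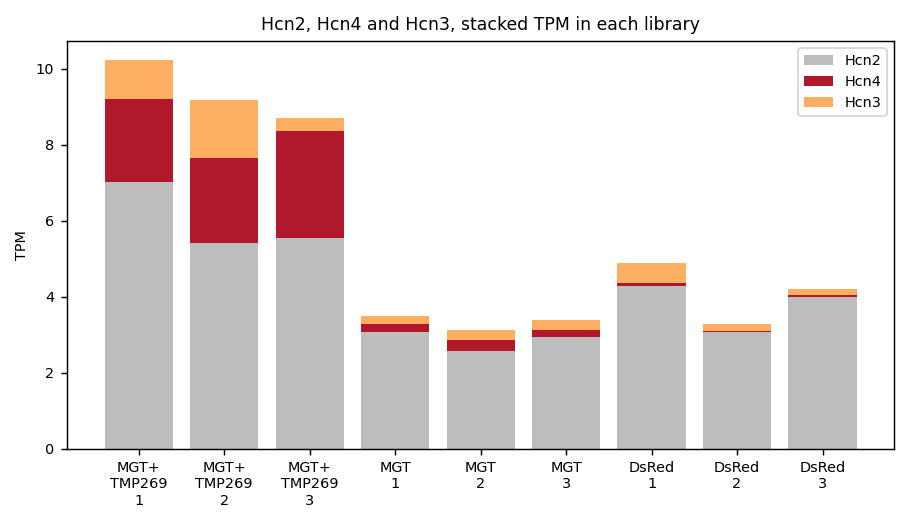
TPM of the pacemaker channel genes Hcn2, Hcn4 and Hcn3 stacked in each library, from 0, for MGT+TMP269, MGT and DsRed replicates 1 to 3. The stacks reach 8.71 to 10.2 TPM in MGT+TMP269 libraries, 3.13 to 3.51 TPM in MGT libraries and 3.28 to 4.89 TPM in DsRed libraries, and the Hcn4 segment is between 2.20 and 2.84 TPM in MGT+TMP269 and at most 0.291 TPM elsewhere.

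The sodium channel gene Scn2a was lowest with TMP269. Scn2a encodes a neuronal alpha subunit. It had 0.957, 1.02 and 0.959 TPM in MGT+TMP269 libraries, against 2.00, 1.54 and 2.64 TPM in MGT libraries and 2.99, 1.89 and 2.68 TPM in DsRed libraries. MGT+TMP269 lay below every other library, and MGT overlapped with DsRed. Scn2a fell in MGT+TMP269 against DsRed (−0.82 ± 0.22, adjusted p = 0.0245, and −0.95 without DsRed replicate 2), a call lost without any 1 of the MGT+TMP269 libraries or DsRed replicate 1. Scn10a and Scn11a, alpha subunits of sensory neurons, averaged 0.221 and 0.0458 TPM over the 9 libraries. Of the beta subunits, Scn3b averaged 2.39 TPM in MGT+TMP269, 2.89 TPM in MGT and 4.75 TPM in DsRed and was not called with all libraries, and Scn4b had 0.0946, 0.135 and 0.116 TPM in MGT+TMP269 libraries, against 0.273, 0.433 and 0.358 TPM in MGT libraries and 0.575, 0.386 and 0.641 TPM in DsRed libraries.

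The calcium channel alpha genes Cacna1c and Cacna1a were higher in both MGT groups than in DsRed. Cacna1c encodes the L-type channel of heart and smooth muscle. It had 8.08, 6.38 and 7.97 TPM in MGT+TMP269 libraries, against 9.76, 10.1 and 7.18 TPM in MGT libraries and 3.3, 2.71 and 5.16 TPM in DsRed libraries. All MGT+TMP269 and MGT libraries lay above every DsRed library and overlapped with each other. Cacna1c was 2.01-fold higher in MGT+TMP269 than in DsRed (0.87 ± 0.23, adjusted p = 0.0252) and 2.42-fold higher in MGT (1.11 ± 0.23, adjusted p = 0.0121), or 1.77-fold and 2.13-fold without DsRed replicate 2. The first call was lost without MGT+TMP269 replicate 1 or 3 or DsRed replicate 1, and the second without MGT replicate 1 or 2. MGT+TMP269 was not called apart from MGT (−0.23 ± 0.23, adjusted p = 0.629).

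Cacna1a, the P/Q-type channel of nerve terminals, had the highest mean of the calcium channel alpha genes in every group. Its level was 78.7, 54.5 and 48.2 TPM in MGT+TMP269 libraries, against 53.8, 34.4 and 19.6 TPM in MGT libraries and 2.99, 5.19 and 13.2 TPM in DsRed libraries. The libraries of a group differed widely, and all DsRed libraries lay below the others. Cacna1a was 8.50-fold higher in MGT+TMP269 than in DsRed (3.09 ± 0.48, adjusted p = 0.00147) and 5.05-fold higher in MGT (2.28 ± 0.48, adjusted p = 0.0118), or 7.49-fold and 4.45-fold without DsRed replicate 2. The MGT call was lost without MGT replicate 1, and MGT+TMP269 was not called apart from MGT (0.82 ± 0.48, adjusted p = 0.374). Cacna1a was 83.5% ± 3.87 in MGT+TMP269, 70.2% ± 9.05 in MGT and 46.2% ± 12.1 in DsRed of the summed alpha-1 TPM, and Cacna1c was 10.6% ± 2.22 in MGT+TMP269, 19.2% ± 4.23 in MGT and 28% ± 7.2 in DsRed.

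Cacna1g encodes a T-type channel that contributes to pacemaking. It had 0.116, 0.872 and 0.538 TPM in MGT+TMP269 libraries, against 1.59, 1.88 and 2.68 TPM in MGT libraries and 1.23, 1.4 and 1.88 TPM in DsRed libraries. The MGT+TMP269 libraries lay below all others. Cacna1g fell in MGT+TMP269 against MGT (−1.03 ± 0.26, adjusted p = 0.0365), a call kept in 4 of 9 fits without 1 library and lost without MGT+TMP269 replicate 1 or 3 or any 1 of the MGT libraries. Against DsRed it was not called (−0.76 ± 0.26, adjusted p = 0.0624, and −0.78, adjusted p = 0.0667, without DsRed replicate 2). The auxiliary subunit Cacna2d1 averaged 21.6 ± 1.71 TPM in MGT+TMP269, 29.7 ± 1.09 TPM in MGT and 26 ± 7.24 TPM in DsRed (SD, n = 3 each), and Cacnb2, the main beta subunit of the heart, averaged 2.63 ± 1.07 TPM in MGT+TMP269, 0.805 ± 0.374 TPM in MGT and 1.32 ± 0.866 TPM in DsRed (SD, n = 3 each). Neither was called in any comparison with all libraries.

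The remaining tested genes without a call were Cacng7, Cacnb1, Kcnmb4, Cacnb4, Kcnt2 and Kcnip3, with group means between 0.860 and 14.1 TPM. Cacnb4 was carried by MGT+TMP269 replicate 3, at 6.13 TPM, with 1.25 and 1.49 TPM in the other libraries of that group.

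Outside the main test, 10 genes averaged at least 1 TPM in some group and 88 did not. With the filter lowered to a mean of 0.1 TPM, 87 channel genes were tested among 18289 genes. In MGT+TMP269 against MGT 7 were higher and 8 lower, with 2.32% and 4.45% of all genes called. In MGT against DsRed these counts were 14 and 4 (5.93% and 2.96% of all genes), and in MGT+TMP269 against DsRed 17 and 7 (10.3% and 6.03%). Without DsRed replicate 2 the 3 comparisons had 9 and 13 calls (12.8% and 8.48% of all genes), 15 and 9 (8.98% and 9.8%), and 15 and 15 (15% and 11.8%), in an alternative chosen after seeing the data. Here too, some genes passed the filter only through the groups where they were higher, such as Hcn4, with a DsRed mean of 0.0542 TPM. These counts therefore describe the tested genes and not the module. Differences in the following sentences come from the fit with all libraries at this lower filter and are small on the log2(TPM + 1) scale because the levels are low.

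Besides Hcn4, TMP269 raised the neuronal genes Kcnc1 and Cacna1b over MGT. Kcnc1, a fast-spiking potassium subunit of the Kcnc4 family, had 1.7, 1.95 and 1.42 TPM in MGT+TMP269 libraries, against 0.422, 0.478 and 0.349 TPM in MGT libraries and 0.10, 0.0225 and 0.0688 TPM in DsRed libraries. It rose in MGT+TMP269 against MGT (0.92 ± 0.14, adjusted p = 0.00468) and against DsRed (1.33 ± 0.14, adjusted p = 0.000203, and 1.31 without DsRed replicate 2). Cacna1b, the N-type channel of nerve terminals, had 2.34, 1.03 and 2.62 TPM in MGT+TMP269 libraries, against 0.415, 0.0608 and 0.221 TPM in MGT libraries and 0.125, 0.204 and 0.383 TPM in DsRed libraries. It rose in MGT+TMP269 against MGT (1.25 ± 0.24, adjusted p = 0.0134) and against DsRed (1.24 ± 0.24, adjusted p = 0.00697, and 1.22 without DsRed replicate 2). In both genes the MGT+TMP269 libraries lay above all others.

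Kcnk13 and Cacng1 had their highest levels in MGT. Kcnk13, a tandem-pore channel known from microglia, had 0.158, 0.264 and 0.27 TPM in MGT+TMP269 libraries, against 1.56, 0.964 and 1.53 TPM in MGT libraries and 0.44, 0.392 and 1.27 TPM in DsRed libraries and fell in MGT+TMP269 against MGT (−0.92 ± 0.22, adjusted p = 0.0355). The macrophage marker sums given above moved with Kcnk13, and their part was not tested. Cacng1, the gamma subunit of the skeletal muscle calcium channel, had 0, 0.103 and 0.105 TPM in MGT+TMP269 libraries, against 0.533, 0.985 and 0.714 TPM in MGT libraries and 0, 0 and 0 TPM in DsRed libraries. It fell in MGT+TMP269 against MGT (−0.70 ± 0.13, adjusted p = 0.0152) and rose in MGT against DsRed (0.79 ± 0.13, adjusted p = 0.0052, and 0.79 without DsRed replicate 2). Its MGT libraries lay above all others, and DsRed was listed at 0.

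Kcnf1, another silent potassium channel subunit, had 1.58, 1.41 and 1.83 TPM in MGT+TMP269 libraries, against 0.671, 0.776 and 1.28 TPM in MGT libraries and 0.0748, 0.0719 and 0.122 TPM in DsRed libraries. It rose against DsRed in MGT+TMP269 (1.26 ± 0.17, adjusted p = 0.000859) and in MGT (0.80 ± 0.17, adjusted p = 0.0159), by 1.24 and 0.79 without DsRed replicate 2. Kcnd2 carries the fast transient outward current of mouse ventricle and had 1.05, 0.85 and 0.714 TPM in MGT+TMP269 libraries, against 0.395, 0.603 and 0.735 TPM in MGT libraries and 0.0693, 0.0800 and 0.0563 TPM in DsRed libraries. It rose against DsRed in MGT+TMP269 (0.80 ± 0.14, adjusted p = 0.005) and in MGT (0.56 ± 0.14, adjusted p = 0.0436), by 0.81 and 0.56 without DsRed replicate 2. In both genes every DsRed library lay below the rest. Kcnip4 and Cacng2 were called higher in MGT+TMP269 against DsRed with all libraries and not without DsRed replicate 2. Their means were 0.710 and 0.647 TPM in MGT+TMP269, 0.229 and 0.539 TPM in MGT and 0.125 and 0.126 TPM in DsRed.

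The falls from the DsRed level at this filter were those of Cacng8 and Scn4b. Cacng8, a relative of the calcium channel gamma subunit that traffics glutamate receptors, had 0, 0 and 0.0936 TPM in MGT+TMP269 libraries, against 0.497, 0.976 and 0.445 TPM in MGT libraries and 2.28, 3.19 and 1.42 TPM in DsRed libraries. It fell in MGT+TMP269 against DsRed (−1.64 ± 0.22, adjusted p = 0.00104) and in MGT against DsRed (−0.99 ± 0.22, adjusted p = 0.0244), with differences of −1.45 and −0.80 without DsRed replicate 2. Its DsRed libraries lay above all others. Scn4b, a beta subunit, fell in MGT+TMP269 against DsRed (−0.46 ± 0.13, adjusted p = 0.0411, and −0.53 without DsRed replicate 2). Scn7a, a sodium-sensing channel of glia and fibroblasts, had 0.333, 0.318 and 0.139 TPM in MGT+TMP269 libraries, against 0.118, 0.113 and 0.15 TPM in MGT libraries and 1.27, 0.37 and 1.59 TPM in DsRed libraries, and the T-type Cacna1h had 0.113, 0.191 and 0.0693 TPM in MGT+TMP269 libraries, against 0.11, 0.327 and 0.372 TPM in MGT libraries and 1.08, 0.31 and 1.37 TPM in DsRed libraries. DsRed replicate 2 lay well below the other DsRed libraries in both. Neither was called with all 9 libraries, and both were called lower in MGT+TMP269 and in MGT against DsRed without that library.

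Several genes of the textbook cardiac currents stayed low or varied by library. Kcnd3, the other transient outward subunit, had at most 0.111 TPM in any library, and its partner Kcnip2 at most 0.871 TPM. Kcna4 had 0.738, 0.94 and 1.11 TPM in MGT+TMP269 libraries, against 0.426, 1.34 and 0.626 TPM in MGT libraries and 0.67, 0 and 0.544 TPM in DsRed libraries and was not called. The slow delayed rectifier gene Kcnq1 had 0.12, 0.114 and 0.0828 TPM in MGT+TMP269 libraries, against 0.198, 0.203 and 1.37 TPM in MGT libraries and 0, 0.0467 and 0.0985 TPM in DsRed libraries, so that MGT replicate 3 made its group mean, and its subunit Kcne1 had at most 0.117 TPM. Kcnq1 overlaps an antisense transcript, and the use of read strand in counting is not stated in the sources used here. Cacna1d, the L-type channel of the node, had 0.522, 1.58 and 0.232 TPM in MGT+TMP269 libraries, against 1.59, 0.643 and 1.35 TPM in MGT libraries and 0.139, 0.183 and 1.49 TPM in DsRed libraries, with libraries of every group scattered and no call. Kcnn3, a small-conductance potassium channel, averaged 0.871 ± 0.0652 TPM in MGT+TMP269, 1.26 ± 0.261 TPM in MGT and 0.633 ± 0.269 TPM in DsRed (SD, n = 3 each) and was not called either.

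Partners and regulators of these channels were followed in a list of 57 genes, of which 41 were tested. In MGT+TMP269 against MGT 2 rose and 10 fell (3.32% and 5.97% of all genes), in MGT against DsRed 13 rose and 4 fell (8.14% and 4.18%), and in MGT+TMP269 against DsRed 15 rose and 7 fell (14.7% and 8.06%). Without DsRed replicate 2 these were 13 and 13 (19.3% and 11.3% of all genes), 14 and 8 (12.5% and 13.8%), and 20 and 8 (21.4% and 15.3%). The median log2 difference of the 41 was 0.14, 0.27 and 0.55, beside the medians of all genes given above. Nalcn, the sodium leak channel, had 25.4, 28.8 and 27.7 TPM in MGT+TMP269 libraries, against 55.9, 57 and 55.1 TPM in MGT libraries and 0.602, 0.322 and 0.479 TPM in DsRed libraries. It rose against DsRed in MGT+TMP269 (4.27 ± 0.14, adjusted p = 5.87e-08) and in MGT (5.28 ± 0.14, adjusted p = 1.67e-08), by 4.20 and 5.21 without DsRed replicate 2, and was 2.05-fold lower in MGT+TMP269 than in MGT (−1.01 ± 0.14, adjusted p = 0.00214).

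Rrad and Gem encode small GTPases that hold back L-type calcium channels through their beta subunits. Rrad had 344.9, 351.8 and 390.3 TPM in MGT+TMP269 libraries, against 239.5, 247.2 and 242.4 TPM in MGT libraries and 5.82, 2.78 and 7.88 TPM in DsRed libraries and rose against DsRed in MGT+TMP269 (5.89 ± 0.26, adjusted p = 3.65e-07, 66.0-fold) and in MGT (5.32 ± 0.26, adjusted p = 9.66e-07, 44.2-fold), or 52.9-fold and 35.5-fold without DsRed replicate 2. Gem had 0.756, 0.842 and 0.185 TPM in MGT+TMP269 libraries, against 4.85, 5.12 and 5.1 TPM in MGT libraries and 1.02, 0.588 and 1.14 TPM in DsRed libraries. Gem fell in MGT+TMP269 against MGT (−1.94 ± 0.23, adjusted p = 0.0009) and rose in MGT against DsRed (1.66 ± 0.23, adjusted p = 0.00116, and 1.53 without DsRed replicate 2). The 3 groups of Rrad did not overlap, and the MGT libraries of Gem lay above all others. Rrad was not called between MGT+TMP269 and MGT (0.57 ± 0.26, adjusted p = 0.238). It was called when DsRed replicate 2 was left out of the fit (adjusted p = 0.00373).

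Further genes with the smallest adjusted p in this list followed either order. Popdc2 and Popdc3 encode cyclic AMP-binding membrane proteins of muscle that bind a tandem-pore potassium channel. Popdc2 had 39.7, 40.3 and 46.5 TPM in MGT+TMP269 libraries, against 24.4, 25.3 and 26.7 TPM in MGT libraries and 6.08, 6.03 and 7.6 TPM in DsRed libraries, while Popdc3 had 10.6, 9.1 and 11.4 TPM in MGT+TMP269 libraries, against 31.3, 31.8 and 30.7 TPM in MGT libraries and 0.277, 0.114 and 0.843 TPM in DsRed libraries. Popdc2 was called 1.66-fold higher in MGT+TMP269 than in MGT (0.70 ± 0.14, adjusted p = 0.0146, kept in 3 of 9 fits without 1 library) and Popdc3 3.01-fold lower (−1.51 ± 0.21, adjusted p = 0.00198), and both rose against DsRed in MGT+TMP269 and in MGT, with and without DsRed replicate 2. Ano1, a calcium-activated chloride channel, had 11.7, 7.9 and 9.86 TPM in MGT+TMP269 libraries, against 29.4, 23.3 and 24.1 TPM in MGT libraries and 1.37, 0.516 and 1.51 TPM in DsRed libraries and rose in MGT against DsRed (3.67 ± 0.24, adjusted p = 7.23e-06, 22.6-fold, and 17.8-fold without DsRed replicate 2).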

How the data were processed

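RNA was measured in 9 libraries, 3 per group. Per the labels' protocols, RNA was extracted with TRIzol for a strand-marking Illumina kit. A single table of TPM values by gene symbol was deposited. The tools kallisto and DESeq2 and the mouse build mm9 are listed in the submitters' processing notes. Their versions, their roles and the use of strand are not stated there. TPM summed to between 988020 and 988999 per library, so depth is unknown. Of 34804 lines, 25 carried a date in place of a symbol, held 0.123% to 0.176% of the TPM and were left out. No 2 libraries were identical (0 pairs).

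Log2(TPM + 1) was fitted in R 4.3.3 with limma 3.58.1, with group as the only term, all 9 libraries and a variance trend, for genes with a mean of at least 1 TPM. The unit decided between the tests planned for counts and for normalized values. P-values are two-sided and Benjamini-Hochberg adjusted over all genes tested, with calls at an adjusted p under 0.05. Differences are of mean log2(TPM + 1) ± SE and understate changes of low genes, and folds are ratios of group means of at least 1 TPM. The procedure was also run on simulated data with normal noise, which did not imitate an outlying library. No result of that run is used here. Values were given for members called in any comparison, genes of the main cardiac currents, the 5 highest members, members with a group mean of at least 1 TPM that missed the filter, and, from the list of partners, up to 4 genes with the smallest adjusted p in each comparison. Some genes that met this rule are not reported here. The members and lists were chosen with earlier results of these data known. Alternatives were other scalings, filters and pseudocounts, fits of only the groups compared, a replicate block, array weights, no variance trend and each library left out. Promoters and gene order came from RefSeq (GRCm38.p6), another build than the named mm9, so the genes' own coordinates are not printed.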

Additional observations from a re-analysis of the deposited data

How the results depend on the processing

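Of the channel gene counts, those higher and lower were 4 and 6 in MGT+TMP269 against MGT, 11 and 3 in MGT against DsRed, and 10 and 5 in MGT+TMP269 against DsRed. With 1 library left out they ran from 1 to 6 and 2 to 10, 6 to 14 and 2 to 6, and 8 to 10 and 4 to 11. The highest lower counts were those without DsRed replicate 2. All genes called in either direction, 1229, 1630 and 3016 in these comparisons, ran from 635 to 4054, 1068 to 3476 and 1865 to 4848. Channel partners called in either direction, 12, 17 and 22, ran from 8 to 26, 14 to 22 and 19 to 28. Lowering the filter to 0.1 TPM moved the higher counts of the comparisons of MGT+TMP269 with MGT and with DsRed to 7 and 17. No filter moved them to 7 and 19, where 1159 and 2744 of all genes were called in either direction. It moved the higher count of MGT against DsRed to 17, where 1571 of all genes were called in either direction. The lower filter with DsRed replicate 2 left out gave 9 higher and 13 lower in MGT+TMP269 against MGT, 9 lower in MGT against DsRed and 15 lower in MGT+TMP269 against DsRed. A fit of only the 2 groups compared gave 10 lower channel genes in MGT+TMP269 against MGT. There 28 partners and 4476 of all genes were called in either direction. It gave 7 higher channel genes in MGT against DsRed, where 1066 of all genes were called in either direction. In MGT+TMP269 against DsRed it called 1789 of all genes in either direction. Array weights gave 10 lower channel genes in the first comparison, where 27 partners and 4818 of all genes were called in either direction. They gave 6 lower channel genes in the second and 10 in the third, where 2915 and 4377 of all genes were called in either direction. Median-ratio scaling moved the lower counts against DsRed to 5 for MGT and 12 for MGT+TMP269, and quantile scaling to 6 and 12. Leaving out DsRed libraries does not change a difference between MGT+TMP269 and MGT, only the estimate of the spread that all groups share and the p-values. The cause of the other shifts was not tested. Pseudocount 0.1 and no variance trend moved no count by over 1.5 times, and no called difference of the 36 tested channel genes or the 41 partners changed sign under any alternative. Of the differences of channel genes that were not called, 6, 7 and 5 in the 3 comparisons changed sign under some alternative, among them Kcnj15, Cacna2d1 and Kcnq5 in MGT against DsRed, and none was called with the other sign.

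Same-numbered libraries of different groups correlated between −0.07 and 0.13 in their deviations from group means, and 1 of 9 such pairs was over 0.1. These correlations cannot decide whether the numbers pair the libraries, because the deviations of 3 libraries in a group depend on one another. The labels do not say either. With the replicate block, 3 channel genes were higher and 6 lower in MGT+TMP269 against MGT, 10 and 3 in MGT against DsRed and 10 and 6 in MGT+TMP269 against DsRed. Of all genes, 947, 1418 and 2679 were called in either direction. Depth is unknown with TPM, so genes near 0 cannot be told from undetected ones.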
